A study of Mus musculus with 18 samples.

Results

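The nuclear genes for the subunits of respiratory complexes II, III, IV and V were followed through cortical development and 3 perturbations of peroxisomes in mouse neural tissue. They were chosen by symbol (Sdha to Sdhd, Uqcr genes, Cyc1, the Cox4 to Cox8 families and Atp5 genes), leaving out pseudogenes marked by "-ps". The rule found 48 of the 32941 genes in each of 4 tables, with 4 in complex II, 9 in complex III, 18 in complex IV and 17 in complex V. The stage table covered brain of wild-type embryos on days 11, 12, 13, 14, 16 and 18 (E11 to E18), with 1 library each in the table. The study's design text calls this tissue cortex and speaks of triplicates, so it is not known whether a stage value is 1 sample or several. Primary neural stem cells (NSC) were wild type with a scrambled hairpin (NSC-Scramble) or had PEX7 knocked down (NSC-Pex7sh). PEX7 is the receptor that imports a small class of enzymes into peroxisomes, among them one of ether lipid synthesis. PLAAT3-PEX11 overexpression was compared with wild-type controls in separate tables, as PLA1 against Ctrl1 (the first set) and as Neuron-PLA against Neuron-ctrl (the neuron set). Each of these 6 groups had 2 libraries. The labels name no vector, promoter or embryonic age for the overexpression and give brain as the source of both sets, without saying how neurons were isolated. Whether replicates are separate animals or cultures is not stated, and p-values therefore describe the spread among libraries, which may be technical.

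Complex II, succinate dehydrogenase, links the tricarboxylic acid cycle to the respiratory chain by passing electrons from succinate to ubiquinone. Complex III passes them on to cytochrome c, and complex IV, cytochrome c oxidase, gives them to oxygen. Complexes III and IV pump protons as they do so, and complex V, the ATP synthase, uses the resulting gradient to make ATP. All subunits of complex II are nuclear encoded, whereas complexes III, IV and V each also need subunits made inside mitochondria. Neural progenitors are known to rely on glycolysis more than neurons do. Several complex IV subunits and subunit c of complex V have paired or triple isoforms from separate genes, some of which are known from muscle, testis or lung.

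Promoters of these genes are known for sites of NRF1, of ETS factors such as GABP, and of YY1, so the windows from 250 bases before to 50 after the RefSeq gene starts (GRCm38.p6) were searched on both strands. Of the 48 genes, 36 matched, with 39 windows. The letters CGCATGCG, the core of the NRF1 motif, were in 7 of these windows (17.9%), against 1.87% of the windows of all 27025 genes. CCGGAAG, read as GABP and other ETS factors bind it, was in 13 (33.3%), against 8.86% of all windows. AAGATGGC, a YY1 motif, was in 3 (7.69%), against 2.75%. None of these 3 motifs contains another, but the ETS and YY1 motifs can overlap by 3 bases. A match is a description of letters and not of a bound site. Of the motifs shown here, only the NRF1 core of Cox6a1 and the ETS motif of Uqcrh also lie before the gene in the GENCODE annotation. The following stretches before the RefSeq gene start are shown for genes whose levels are described below. The motif is in capitals (CTTCCGG is CCGGAAG on the other strand), 5′ to 3′ on the gene's own strand.
Cox6a1, NRF1 core, chr5:115349101-115349130, minus strand: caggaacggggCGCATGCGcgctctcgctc
Cox6a1, ETS motif, chr5:115348959-115348985, minus strand: ccccatttccgCTTCCGGcgcgccggt
Cox6b1, ETS motif, chr7:30626125-30626153, minus strand: tcctctcgcagCTTCCGGccagtcggaat
Uqcrh, ETS motif, chr4:116075071-116075091, minus strand: agtatgccgcaCTTCCGGcca
Atp5k, NRF1 core, chr5:108434430-108434459, minus strand: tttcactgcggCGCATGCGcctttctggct
Atp5g2, NRF1 core, chr15:102671070-102671099, minus strand: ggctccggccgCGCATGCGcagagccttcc
Atp5j, NRF1 core, chr16:84835105-84835134, minus strand: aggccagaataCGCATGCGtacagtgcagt
Atp5j, ETS motif, chr16:84835020-84835048, minus strand: agctgagggacCCGGAAGcacttaccctc
Atp5j, YY1 motif, chr16:84835046-84835075, minus strand: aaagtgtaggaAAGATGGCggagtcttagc
Atp5j, the gene of coupling factor F6, held all 3 motifs, and in the GENCODE annotation it overlaps, on the other strand, Gabpa, the gene of the DNA-binding subunit of GABP.

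The values were RPKM, read counts scaled by exon length and by library. They rested on 41501880 to 54373317 reads in the stage libraries and on 16147911 to 28104927 in the other 12, as recovered from the values. Pex7 was at 1.19 and 1.22 RPKM with the scrambled hairpin and at 0.5004 and 0.669 RPKM with the knockdown. Plaat3 was at 0.413 and 0.431 RPKM in Ctrl1 against 31.4 and 29.1 RPKM in PLA1, and at 0.0699 and 0.230 RPKM in Neuron-ctrl against 19.0 and 20.8 RPKM in Neuron-PLA. All 4 forebrain markers were above 1 RPKM in all 18 libraries, and all 8 neuronal markers likewise. Summed over 8 genes, the neuronal markers were at 1553 to 1674 RPKM in the neuron set, at 324 to 693 RPKM in the first set and at 729 to 964 RPKM in the NSC libraries, so the libraries named for stem cells also held neuronal transcripts. The 2 scramble libraries stood apart in proliferation markers (6 genes, summed 229 and 134 RPKM), with both knockdown libraries between them (191 and 170 RPKM).

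Of the 48 genes, 44 had a mean of at least 1 RPKM over the stages, 43 over the NSC libraries, 40 over the first set and 41 over the neuron set, and these were tested. The genes below this minimum were isoforms of complex IV (Cox4i2, Cox6a2, Cox6b2, Cox7a1, Cox7b2, Cox8b and Cox8c, each in 1 or more tables) and, in the first set, Atp5o. Cox8c, known from testis, was listed at 0 in all 18 libraries. Reads of 8 genes can be shared with annotated near-identical copies, mostly pseudogenes, in particular Atp5l with 9 such copies, Uqcrb and Atp5h with 3 each and Atp5g2 with 2. Their values are uncertain to that extent. The counting's strand setting is not given in the sources used here, so reads of the 15 genes that overlap a gene on the other strand, Sdha, Uqcrb, Uqcrc2, Uqcrh, Cox4i1 and Atp5a1 among them, may include some of that gene.

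Through development the subunit genes were high at E11, lower from E12 to E16 and, for most of complexes III, IV and V, higher again at E18. Of the 44 genes, 41 were lower at E12 than at E11, with a median ratio of 0.728, whereas 45.7% of all 12921 genes tested were lower and the median ratio of all genes was 1.03. From E16 to E18, 38 of 44 were higher (median ratio 1.15), against 39.9% of all genes (median ratio 0.924). E11 was the highest stage for 30 of 44 genes, and it was the highest for 32.4% of all genes. E12 was the lowest stage for 19 and E16 for 15, against 8.81% and 6.67% of all genes. With 1 library per stage, a stage and its library cannot be told apart. Haemoglobin and other red cell transcripts, a list of 5 genes, summed to 1957 RPKM at E11, to 610 to 718 RPKM from E12 to E16 and to 253 RPKM at E18, and their part in the E11 values was not tested. In these tissue libraries, as in the brain sets below, fewer cells of a type and less RNA per cell cannot be told apart.

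**Figure D1:**
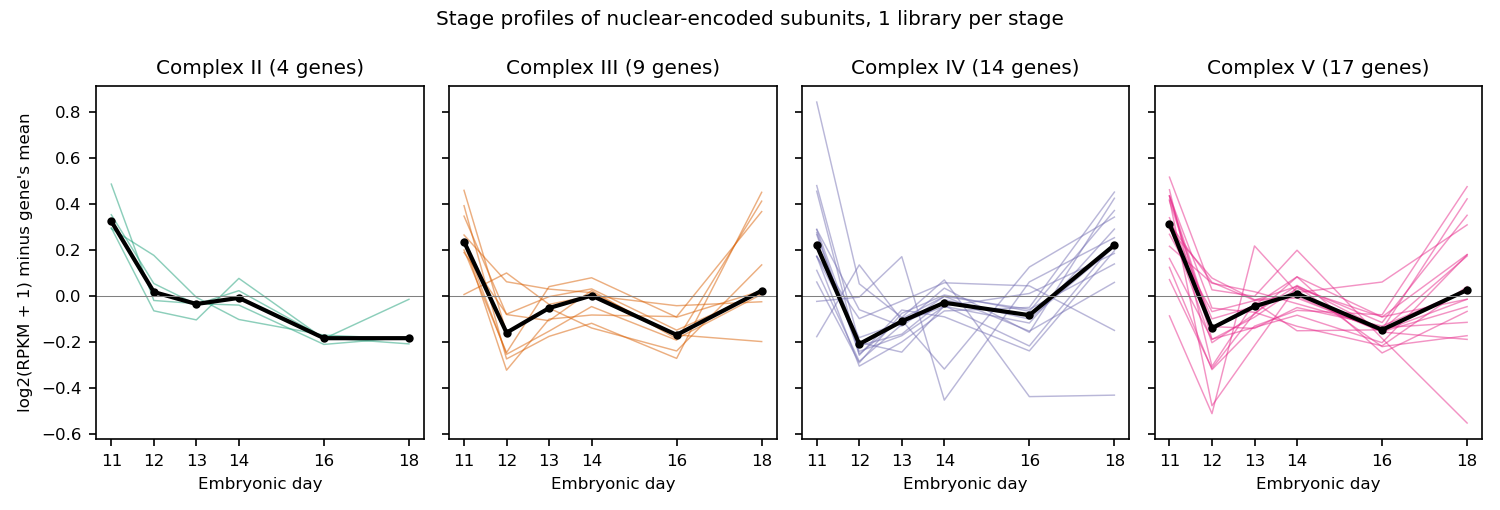
Stage profiles of the 44 tested genes by complex: the x axis is the embryonic day and the y axis is log2(RPKM + 1) minus the gene's mean over the 6 stages, with 1 thin line per gene and the median as a black line with points. The median is highest at E11 in complexes II, III and V, all 17 complex V genes are lower at E12 than at E11, and 13 of 14 complex IV genes but 2 of 4 complex II genes are higher at E18 than at E16.

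By complex, the last interval was as follows. In complex IV, 13 of 14 genes were higher at E18 than at E16, with a median ratio of 1.25. Cox6b1, which sits on the intermembrane face of the enzyme near the cytochrome c site, was at 252, 191, 214, 239, 209 and 313 RPKM from E11 to E18. Cox6a1, an isoform expressed in most tissues, was at 274, 196, 211, 232, 234 and 332 RPKM. Both were thus highest at E18, as were 13 of the 44 genes and 27.5% of all genes. In complex III, 8 of 9 were higher at E18 than at E16 (median 1.15), led by Uqcr10, a small structural subunit, at 67.6 and 112 RPKM. In complex V, 15 of 17 were higher (median 1.14). Atp5mpl and Atp5md, small membrane subunits, were at 42.8 and 64.0 RPKM and at 24.2 and 36.1 RPKM at these 2 stages. In complex II the ratio of E18 to E16 was 0.988 for Sdha, 0.981 for Sdhc, 1.02 for Sdhd, a membrane anchor, and 1.13 for Sdhb, the iron-sulfur subunit. These ratios have no replicates and no test.

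A slope on embryonic day was tested for all genes with limma, at a Benjamini-Hochberg adjusted p under 0.05. Among the 44 genes, 5 fell and none rose. Over all 12921 genes 25.5% fell and 19.6% rose, so the count of subunit genes was below the background in both directions, and their median slope, -0.01 per day on the log2 scale, was near that of all genes, -0.02. Without adjustment, 8 subunit genes and 6906 genes in all had a p under 0.05. Complex II had 2 of the 5. Sdha, the flavoprotein that binds succinate, went from 47.4 through 43.6, 38.3, 35.8 and 34.1 to 33.7 RPKM, lower at each stage than at the one before (slope -0.07 per day, SE 0.02, adjusted p = 0.0363). Sdhc, the other membrane anchor, was at 42.5 RPKM at E11 and at 28.5 RPKM at E18, with 34.4, 32.2, 33.6 and 29.0 RPKM between (slope -0.07, SE 0.02, adjusted p = 0.0424).

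In complex III, Uqcrfs1, the Rieske iron-sulfur protein, fell from 99.96 RPKM at E11 through 86.7, 84.8, 83.9 and 73.7 to 72.2 RPKM at E18 (slope -0.06, SE 0.02, adjusted p = 0.0422). In complex IV, Cox6b2, an isoform known from testis, was at 5.36 RPKM at E11, between 2.32 and 2.72 RPKM from E12 to E14 and at 1.62 and 1.63 RPKM at E16 and E18 (slope -0.15, SE 0.04, adjusted p = 0.0227). In complex V, Atp5g2, one of 3 genes for the same subunit c of the rotor ring, was at 132, 94.0, 92.2, 106, 81.1 and 62.6 RPKM (slope -0.12, SE 0.03, adjusted p = 0.0135). Atp5g2 had its lowest value at E18, the stage at which most other subunits were higher again. Proliferation markers fell over the same stages (6 of 6, summed 408 RPKM at E11 and 32.7 RPKM at E18) and 6 of 8 neuronal markers rose (958 and 2749 RPKM), and their part in these slopes was not tested.

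The slopes depended on the stages used, the end stages among them. Sdhc and Uqcrfs1 lost their call whichever stage was left out. Without E11, 6 genes rose (Cox5b, Cox6a1, Cox7b, Uqcr11, Atp5k and Atp5md), 1 fell, and the median turned to 0.03. Of all genes, 5251 of 12933 were then called in either direction. Without E18 none fell and the median was -0.06, while 2537 of 12779 genes in all were called in either direction. Of the 5 that fell, Atp5g2 kept its call in 11 of 12 alternatives and Cox6b2 in 8, Sdha in 4 and Sdhc and Uqcrfs1 in 3 of 12. Without E11 the slope was -0.09 for Cox6b2 and -0.05 for Sdhc, and with the trend on exon length and GC content removed it was -0.04 for Sdha and -0.02 for Uqcrfs1, none of which passed. After that trend was removed from each library, 40 of 44 genes were lower at E12 than at E11 and 40 of 44 higher at E18 than at E16, while 3 genes rose over the stages (Cox7b, Atp5mpl and Atp5md) and 3 fell. With the trend removed, the slope of 5787 of 12881 genes in all was called in either direction.

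The 3 genes of subunit c took different courses. They encode the same mature protein with different import sequences. As a share of their summed RPKM, Atp5g2 was at 44.6% at E11, between 42.3% and 47.8% from E12 to E16, and at 32.1% at E18. Atp5g3 was at 51.2% at E11, between 46.1% and 51.2% to E16, and at 59.2% at E18. Atp5g1 was at 4.24% at E11 and 8.67% at E18. Cox7a2l, a relative of the Cox7a isoforms that is known as a supercomplex assembly factor, made up 45.2% of the Cox7a group at E11, 48.6% to 49.6% from E12 to E16 and 40.9% at E18, with nearly all of the rest from Cox7a2.

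The isoforms known from other tissues were low in the stages. Cox4i2, known from lung and pericytes, was at 1.14 to 2.38 RPKM, or 0.497% to 1.01% of the Cox4 pair, and pericyte markers were present at 16.9 to 26.2 RPKM summed over 7 genes. Cox7a1, a muscle isoform, was at 0.855 to 2.03 RPKM. Cox6a2, a muscle isoform, had no more than 1 read until E16 and 33 reads (0.892 RPKM) at E18. Muscle markers were also highest at E18, at 4.23 RPKM summed over 10 genes against 1.26 to 1.63 RPKM before. Most of the E18 sum was Acta1, at 3.41 RPKM, and no other muscle marker reached 1 RPKM at E18. The part of muscle in the Cox6a2 value was not tested. Cox8b, another muscle isoform, had at most 1 read in each stage library.

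In neural stem cells, no subunit gene passed the test with knockdown of Pex7. None of the 43 tested genes was called by limma, as was none of all 12482 genes (0% rose and 0% fell), by limma-voom on recovered reads either. An unadjusted p under 0.05 was found for 0 subunit genes and 184 genes in all. The changes lay between -0.12 and 0.12 on the log2 scale, with a median of 0.02 against -0.00270 for all genes. The 95% intervals of single genes lay between -0.39 and 0.52, so changes beyond these bounds lie outside the interval of every tested gene, and smaller ones are not shown to be absent.

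The 3 genes of smallest p did not pass. Atp5l, subunit g of the ATP synthase membrane part, was at 6.67 and 6.74 RPKM with the scrambled hairpin and at 7.55 and 7.24 RPKM with the knockdown (0.12, SE 0.08, adjusted p = 1.00, limma). Cox6c, a small complex IV subunit, was at 18.4 and 17.8 RPKM against 17.7 and 15.6 RPKM (-0.12, SE 0.09). Uqcrb, the ubiquinone-binding subunit of complex III, was at 56.6 and 58.1 RPKM against 56.3 and 49.3 RPKM (-0.12, SE 0.09). In these 3 genes the groups did not overlap, but the gap was smaller than the spread within a group in Cox6c and Uqcrb. Over all 43 genes, both knockdown libraries were above both controls in 4 (Atp5l, Atp5pb, Cox4i1 and Cox7c) and below in 3, against 10.6% and 11.9% of all genes.

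**Figure D2:**
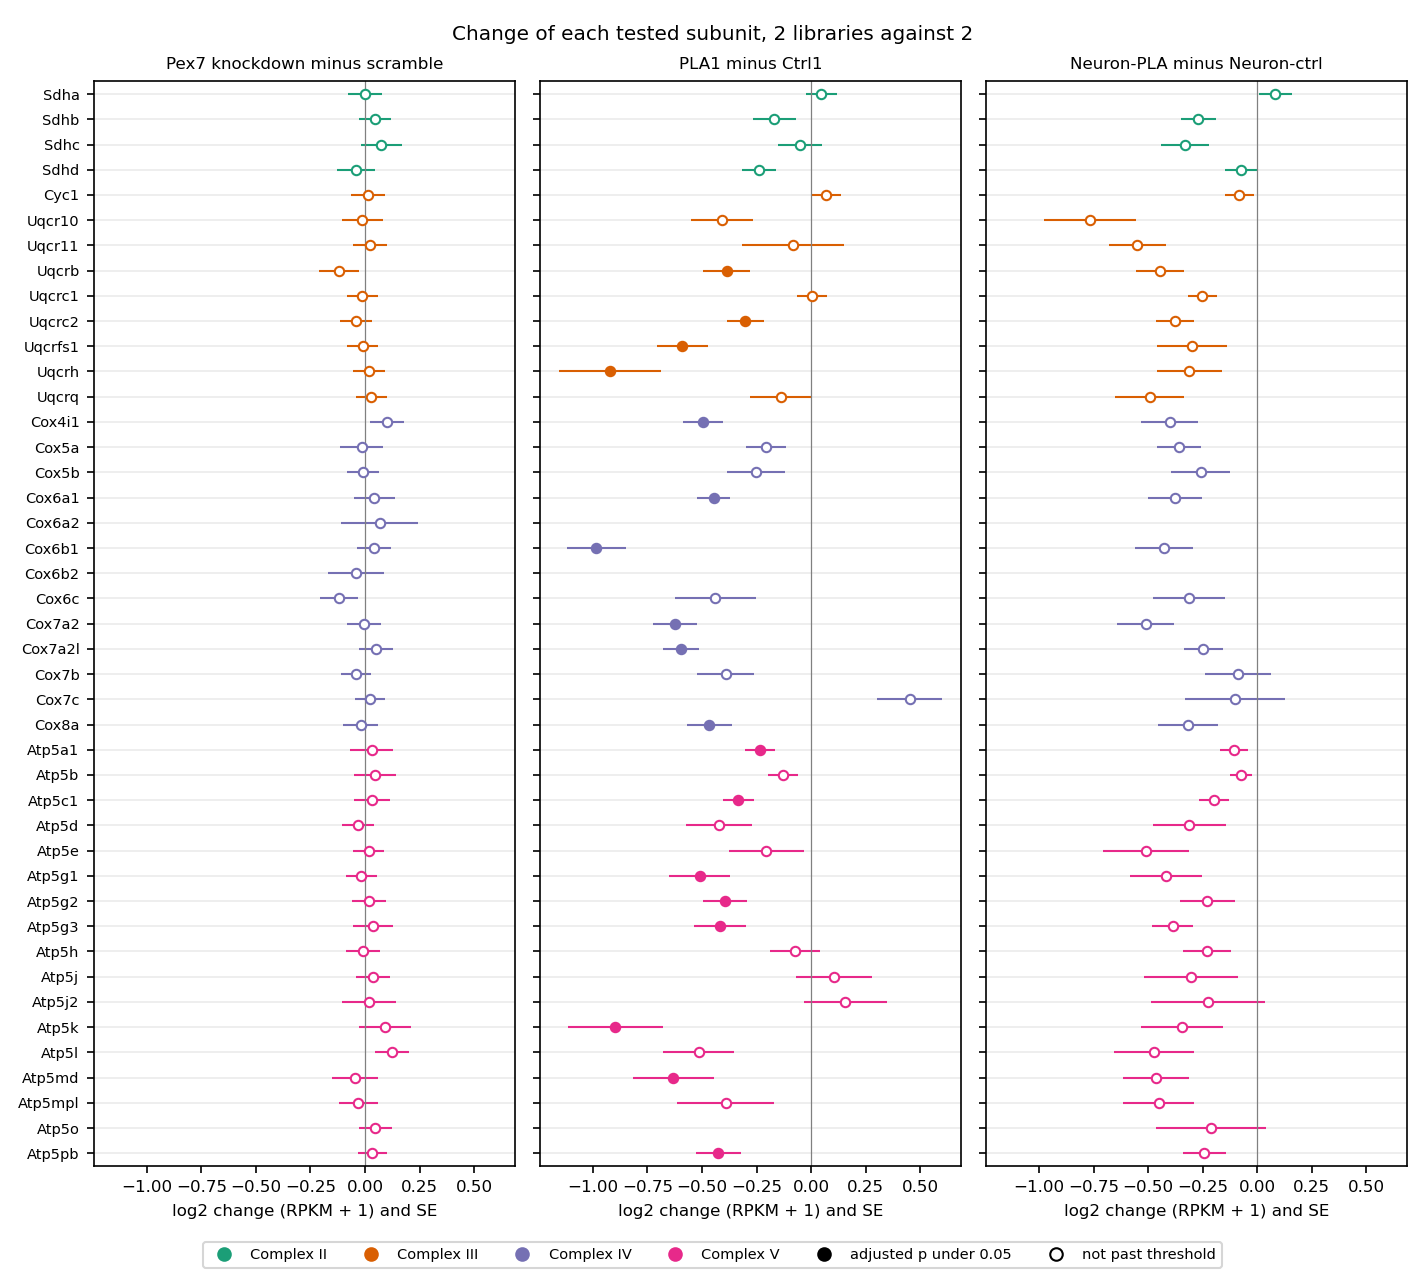
Change of each tested gene in the 3 perturbations: the x axis is the log2 change on the (RPKM + 1) scale, bars are 1 SE, colours are complexes, and filled points passed an adjusted p under 0.05 with limma over all genes. The knockdown changes lie between -0.12 and 0.12, 18 of 40 points in the first set are filled and all are below 0, and 40 of 41 points in the neuron set lie below 0 without passing.

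Isoform shares were alike in the 4 stem cell libraries. Cox6b2 was at 10.1 to 12.5 RPKM, which was 10.2% to 13.2% of the Cox6b pair, against 0.517% to 2.08% in the stages. Testis markers, where Cox6b2 is best known, were at 0.449 to 1.54 RPKM summed over 3 genes, and Tnp1 among them was at 0. Cox6a2 was at 2.21 to 3.35 RPKM, on 28 to 41 reads, or 0.697% to 1.03% of the Cox6a pair. Cox7a2l and Cox7a2 were near equal, with Cox7a2l at 49.3% to 52.5%. The subunit c genes stood at 40.9% to 42.6% for Atp5g2, 48.5% to 50.5% for Atp5g3 and 8.60% to 9.38% for Atp5g1. The tables were normalised separately, so these differences between tables have no test. A share compares genes within a library, but ratios between tables changed with transcript length, as given below. Main transcripts are 618 and 585 bp for Cox6b1 and Cox6b2, but 1076 and 659 bp for Cox7a2l and Cox7a2. They are 4715 and 731 bp for Atp5g1 and Atp5g2. The part of length in the shares was not tested.

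With PLAAT3-PEX11 overexpression in the first set, some subunits of complexes III, IV and V fell, and none of the 4 of complex II passed the test. Of 40 genes tested, 18 fell and none rose at an adjusted p under 0.05 with limma, against 13.2% of all 11623 genes that fell and 16.3% that rose. The median change was -0.39 against 0.06 for all genes. On simulated data this fit called more unchanged genes than its threshold allows, so some single calls may be false. By complex, 4 of 9 fell in complex III, 6 of 11 in complex IV, 8 of 16 in complex V and 0 of 4 in complex II. Medians were -0.30 in complex III, -0.45 in complex IV, -0.39 in complex V and -0.11 in complex II. Differences between complexes were not tested. Both PLA1 libraries were below both controls in 28 of 40 genes (29.7% of all genes) and above in 2 (39.6% of all genes). The 18 and the 28 both include Atp5k, which was tested only through its level in the controls.

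In complex IV, Cox6b1 (chr7:30616861-30626151, mm10) was at 11.7 and 9.53 RPKM in Ctrl1 and at 4.72 and 4.96 RPKM in PLA1, a change of -0.98 (SE 0.14, adjusted p = 0.00266). Cox7a2l (chr17:83501918-83517330) was at 271 and 242 RPKM against 177 and 162 RPKM, a change of -0.59 (SE 0.08, adjusted p = 0.00278). Cox7a2 was at 57.7 and 48.6 RPKM against 35.1 and 32.9 RPKM (-0.63, SE 0.10, adjusted p = 0.004996). In these 3 genes the gap between groups was larger than the spread within each. Cox4i1, a regulatory subunit, changed by -0.50 (SE 0.09), Cox8a by -0.47 (SE 0.10) and Cox6a1 (chr5:115345642-115348981) by -0.45 (SE 0.07), from 177 and 164 to 121 and 128 RPKM. These 6 were the complex IV genes that fell. Cox5a and Cox5b, subunits on the matrix side, were at -0.21 and -0.25 and did not pass.

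In complex III, Uqcrfs1 was at 36.9 and 29.8 RPKM in the controls and at 22.4 and 20.9 RPKM in PLA1, a change of -0.59 (SE 0.12, adjusted p = 0.0106). Uqcrh, the hinge protein that bridges cytochrome c1 and cytochrome c, was at 6.80 and 3.88 RPKM against 2.50 and 2.03 RPKM, on 172, 101, 50 and 45 reads (-0.92, SE 0.23, adjusted p = 0.0243). Its 2 controls differed by more than the lower control and the higher PLA1 library did, and without the first Ctrl1 library its change was -0.58 and did not pass (adjusted p = 0.154). Uqcrc2, a core subunit, was at 50.7 and 46.9 RPKM against 40.5 and 38.3 RPKM (-0.30, SE 0.08, adjusted p = 0.0334). Uqcrb also fell. Uqcrc1, the other core subunit, did not pass, at 158 and 155 RPKM against 154 and 160 RPKM (0.00374, 95% interval -0.15 to 0.16). Cyc1, cytochrome c1, did not pass either, at 147 and 140 RPKM against 147 and 153 RPKM (0.07, interval -0.09 to 0.23). The intervals of both exclude a fall of the size of Uqcrfs1.

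In complex V, Atp5c1, the central stalk subunit gamma, was at 225 and 211 RPKM in the controls and at 178 and 167 RPKM in PLA1 (-0.33, SE 0.07, adjusted p = 0.0148). Atp5pb, subunit b of the peripheral stalk, was at 74.2 and 64.6 RPKM against 55.1 and 47.8 RPKM (-0.43, SE 0.10, adjusted p = 0.0217). Atp5k, subunit e, was at 3.18 and 2.16 RPKM against 1.21 and 0.724 RPKM, on 40, 28, 12 and 8 reads (-0.90, SE 0.22, adjusted p = 0.0217). With a pseudocount of 0.1 its change was -1.39, and with limma-voom it was -1.45 and did not pass (adjusted p = 0.0640). Its mean in PLA1 was under 1 RPKM, so it was tested only through its level in the controls, and without it 17 of 39 genes fell, with 7 of 15 in complex V. All 3 subunit c genes fell, Atp5g1 by 0.51, Atp5g3 by 0.42 and Atp5g2 by 0.39 on the log2 scale. These calls were not kept without the first Ctrl1 library, where Atp5g3 was at -0.27. Shares of the 3 genes were alike in both groups: Atp5g2 was at 60.4% and 62.5% in the controls and at 63.6% and 61.1% in PLA1. Atp5a1, the alpha subunit, fell by 0.23, while Atp5b, the catalytic beta subunit, was at 736 and 688 RPKM against 668 and 632 RPKM and did not pass (-0.13, interval -0.29 to 0.03). Atp5md fell by 0.63.

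**Figure D3:**
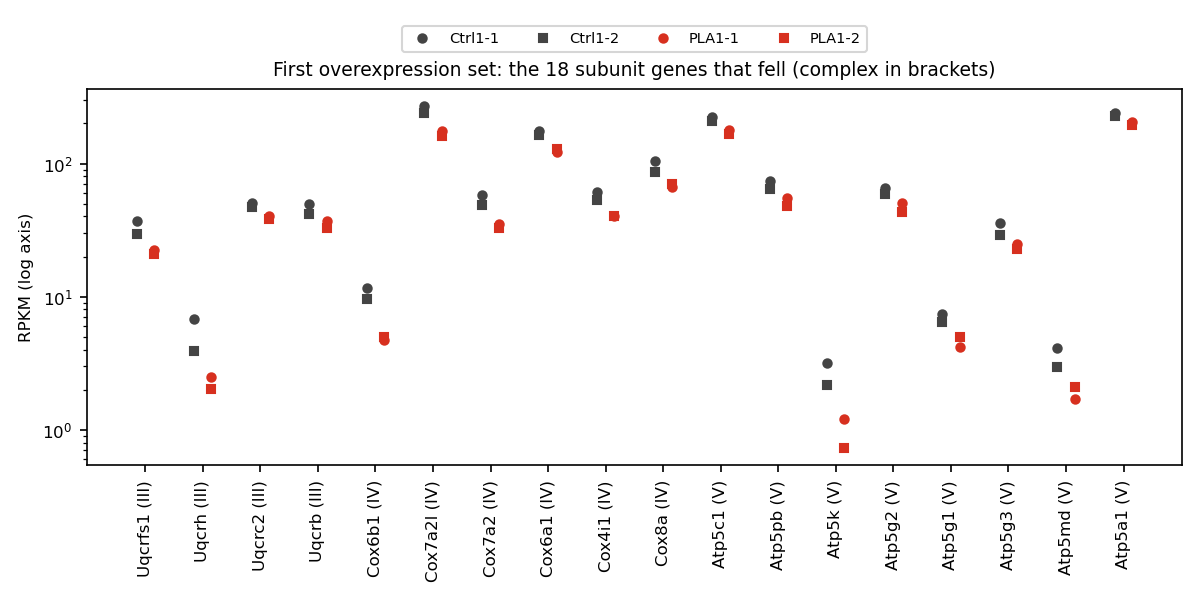
RPKM (log axis) of the 18 genes that fell in the first set, with grey marks for the 2 Ctrl1 libraries and red marks for the 2 PLA1 libraries, ordered by complex. Cox6b1 lies at 9.53 and 11.7 RPKM in the controls and 4.72 and 4.96 RPKM in PLA1, and Atp5k, with 8 to 40 reads, lies lowest.

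Of the 6 genes with a positive change, Cox7c had the largest. This small complex IV subunit was at 3.59 and 3.19 RPKM in the controls and at 4.60 and 5.42 RPKM in PLA1, on 83, 76, 84 and 110 reads (0.45, SE 0.15, adjusted p = 0.0564). It did not pass, though it was called once the trend on exon length and GC content was taken out (0.54, adjusted p = 0.0315). In complex II, Sdha was at 126 and 135 RPKM against 137 and 132 RPKM (0.05, interval -0.12 to 0.21), Sdhb was at -0.17, Sdhc at -0.05 and Sdhd at -0.24 (adjusted p = 0.0544).

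The first set's changes depended on particular libraries. Without the first Ctrl1 library, which was the highest of the 4 for 32 of 40 genes (24.0% of all genes), the median was -0.25, against 0.06 for all genes. Fewer genes were then called, both among the subunit genes and among all genes, as was also so without the second PLA1 library. With no filter on low values, 3 of 47 fell, where 1177 of 21923 genes in all were called in either direction. Those 3 genes, Cox6a1, Cox6b1 and Cox7a2l, were called in all 11 alternatives, with changes between -0.39 and -0.51, between -0.85 and -1.12 and between -0.50 and -0.68. The members tested had shorter exon models than other genes (median 1794 against 4412 bp). With the trend on exon length and GC content removed, 19 fell and the median was -0.28, while 3381 of 11590 genes in all were called in either direction.

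Other transcripts moved in the same libraries. Proliferation markers rose (6 of 6, summed 174 and 175 RPKM in the controls and 290 and 292 RPKM in PLA1), 6 of 8 neuronal markers fell (693 and 669 against 339 and 324 RPKM), and microglial markers fell (6 of 6, 428 and 397 against 173 and 183 RPKM). Of 7 radial glia genes 4 rose and 1 fell (summed 295.5 and 278.8 RPKM in the controls and 322.8 and 327.5 RPKM in PLA1). Over all genes 16.3% rose and 13.2% fell. None of these lists had a gene at 0. Their part in the subunit changes was not tested.

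Other respiratory chain subunit genes called in the first set mostly fell, where 13.2% of all genes fell and 16.3% rose. Of 37 nuclear complex I subunits tested, 10 fell and 1 rose, with a median of -0.16. Ndufa5 changed by -0.70 (SE 0.14, adjusted p = 0.0102), Ndufb3 by -0.58 and Ndufb11 by -0.52, and Ndufa10 was the one that rose, by 0.51. Of the mRNAs made inside mitochondria 10 of 12 fell, with a median of -1.06, and ND4 was at -1.37 (SE 0.08), ND5 at -1.35 and ATP6 at -1.29. Ndufa4, now counted as a complex IV subunit, fell by 0.76 on the log2 scale.

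Among assembly factors, Sdhaf4, a chaperone of the complex II flavoprotein, changed by -1.13 (SE 0.09, adjusted p = 0.000461), and its client Sdha did not pass. Uqcc3, needed for cytochrome b, fell by 0.58. Of 19 complex IV assembly factors 3 fell (Coa3 by 1.74, Cmc1 by 0.61 and Cox19 by 0.52) and 2 rose (Cox11 by 0.50 and Cox18 by 0.45), near the shares of all genes (13.2% fell and 16.3% rose). Atpaf1, a chaperone of the F1 beta subunit, rose by 0.51. Of 12 regulators of mitochondrial gene expression tested, none fell and 3 rose, the coactivators Pprc1 (0.78) and Ppargc1a (0.79) and the GABP subunit Gabpb2 (0.60), which is also near the 16.3% of all genes that rose. Of the 14 genes that fell and had a promoter window, 6 held the ETS motif and 3 the NRF1 core, and of the 17 tested genes that were not called, 7 and 4 did. The 14 include Atp5k, which held both motifs and was tested only through its level in the controls.

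In the neuron set almost all subunit genes were lower with PLAAT3-PEX11 overexpression, but none passed the test. Of 41 genes 40 had a negative change (49.6% of all genes), with a median of -0.31 against 0.00236 for all genes. Limma called none at an adjusted p under 0.05, where 0.501% of all 11179 genes fell and 0.376% rose. Of the subunit genes 22 had an unadjusted p under 0.05, of all genes 1976, and limma-voom on recovered reads called 1, Uqcrc1. Both Neuron-PLA libraries were below both controls in 31 of 41 genes (25.3% of all genes), and above in 1, Sdha (24.7% of all genes). The 40 and the 31 both include Atp5o. Its mean in Neuron-PLA was 0.949 RPKM, so it was tested only through its level in the controls.

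The 3 genes of smallest p were the following. Uqcrc2 was at 62.6 and 64.4 RPKM in Neuron-ctrl and at 46.6 and 50.8 RPKM in Neuron-PLA, a change of -0.38 (SE 0.09, adjusted p = 0.0976). Uqcr11, a small complex III subunit, was at 16.3 and 14.9 RPKM against 9.51 and 11.2 RPKM (-0.55, SE 0.13, adjusted p = 0.104). Atp5g3 was at 31.5 and 30.6 RPKM against 23.6 and 23.4 RPKM (-0.39, SE 0.10, adjusted p = 0.113). In all 3 the groups were further apart than the libraries within them. By complex, medians were -0.17 in complex II, -0.38 in complex III, -0.32 in complex IV and -0.30 in complex V.

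The 2 Neuron-PLA libraries differed from each other. The first was the lowest of the 4 for 36 of 41 genes, where it was lowest for 29.3% of all genes, and the summed RPKM of all members was 2642 in it and 2985 in the second, against 3280 and 3309 in the controls. Cox6b1 showed this, at 27.9 and 27.5 RPKM in the controls and at 17.9 and 23.1 RPKM in Neuron-PLA. Without the first Neuron-PLA library the median change was -0.18. The single gene on the other side was Sdha, at 93.4 and 91.7 RPKM against 94.7 and 102 RPKM (0.08, did not pass). Of complex I, 37 of 39 nuclear subunits had a negative change in this set (49.6% of all genes), with a median of -0.37. Of these 39, 1 fell (Ndufa12, -0.78), where 0.501% of all genes fell.

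Markers of other cell types also fell in the neuron set. Cldn5, an endothelial tight junction gene, fell by 2.94, Rgs5, a pericyte gene, by 1.31 and Hba-a1 by 1.32 on the log2 scale. Endothelial markers summed to 19.3 and 19.0 RPKM in the controls and to 1.655 and 1.29 RPKM with overexpression, but this was nearly all Cldn5, since Kdr, Cdh5 and Pecam1 were below 1 RPKM in all 4 libraries. Pericyte markers summed to 16.2 and 13.49 against 6.18 and 5.37 RPKM. Of 6 radial glia genes tested 2 fell, Hes5 by 0.76 and Fabp7 by 0.91, which were the most abundant of the list, and its sum was 308 and 318 against 160 and 200.2 RPKM. Of 6 microglial genes 1 fell, C1qb by 0.88, and all 6 had a negative change (118 and 121 against 77.9 and 67.7 RPKM). None of the 8 neuronal markers was called (1605 and 1618 against 1553 and 1674 RPKM). Whether these cells bear on the subunit values was not tested.

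The effect of overexpression was compared between the first and the neuron set by their interaction. None of 40 subunit genes differed at an adjusted p under 0.05 with limma, where 6.19% of all 11705 genes were higher in the first set's effect and 5.48% lower. An unadjusted p under 0.05 was reached by 3 subunit genes and by 3224 genes in all. Those 3 were Uqcrc1 (0.26, interval 0.05 to 0.46), Cox6b1 (-0.56, interval -1.004 to -0.11) and Cox7a2l (-0.35, interval -0.64 to -0.05), with adjusted p of 0.101, 0.105 and 0.122. Limma-voom called none. A gene that fell in the first set and did not pass in the neuron set, as 18 did, is thus not shown to differ between the sets. Among the mRNAs made inside mitochondria 8 of 13 differed, all with the larger fall in the first set (ND5 -1.44, ND4 -1.32).

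**Figure D4:**
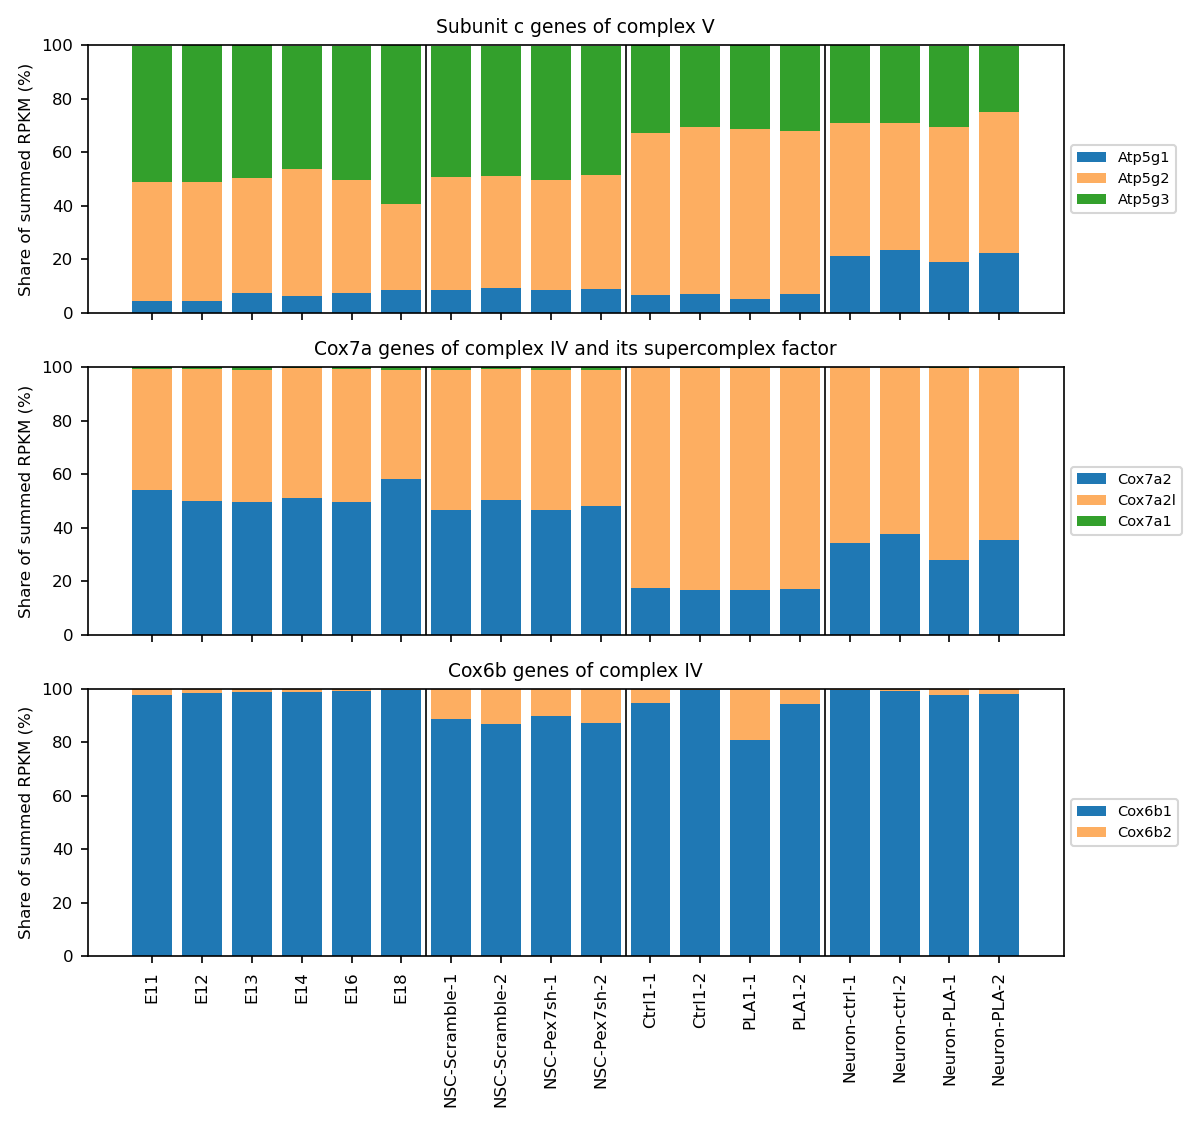
Shares of isoforms in the summed RPKM of their group in each of the 18 libraries (stacked bars, y axis in percent from 0 to 100), for subunit c, the Cox7a group and the Cox6b pair, with vertical lines between the 4 tables. Cox7a2l takes 82.4% to 83.2% of its group in the first set against 40.9% to 49.6% in the stages, and Atp5g1 takes 18.9% to 23.4% of subunit c in the neuron set against 4.24% to 8.67% in the stages. These differences between tables have no test.

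Isoform shares in the overexpression sets were as follows, with the same limit from transcript length on comparisons between tables. Cox7a2l made up 82.4%, 83.1%, 83.2% and 83.0% of the Cox7a group in the 4 libraries of the first set, though its level fell there, since Cox7a2 fell with it. In the neuron set it made up 65.9% and 62.3% in the controls and 71.7% and 64.2% with overexpression. Atp5g1 was at 21.2% and 23.4% of subunit c in Neuron-ctrl and at 18.9% and 22.3% in Neuron-PLA, but at 5.20% to 6.98% in the first set, where Atp5g2 led with 60.4% to 63.6%. Cox6b2 in the first set ranged from 0.448% to 19.1% of its pair on 1 to 20 reads, so these shares were not resolved. Cox7b2, another isoform known from testis, was at 3.56% and 5.54% of its pair in Neuron-ctrl and 2.72% and 1.51% in Neuron-PLA, on 6 to 17 reads. Cox4i2 stayed at or below 1.74% in all 18 libraries, and Cox6a1, Cox8a and Cox7b made up at least 94.5% of their groups in each library.

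The order of the subunits itself was unlike between tables. In the stages Atp5o, the peripheral stalk subunit that confers oligomycin sensitivity, was at 97.0 to 139 RPKM and in the stem cells at 53.2 to 58.1 RPKM. In the first set it was at 0.595, 0.8435, 1.005 and 0.961 RPKM, and in the neuron set at 1.27, 1.21, 0.724 and 1.17 RPKM, on 24 to 65 reads per library. As a percentage of Atp5b in the same library, Atp5o was at 36.3% to 48.7% in the stages and at 0.0809% to 0.152% in the first set. The annotation has a second gene named Atp5o on the same strand at this position, and its part in these values was not tested. Cox7c, Cox6b1, Atp5k, Atp5j, Atp5j2 and Uqcrh were also low, with Ctrl1 means at 0.0375 to 0.0510 times the stage means. In the other direction, Sdha was 3.36 times, Sdhd 3.18 times, Uqcrc1 3.03 times and Atp5b 2.75 times its stage mean.

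Counted over 44 members, 34 were below all 6 stages in both Ctrl1 libraries and 7 above, against 4803 and 3852 of 12368 genes in all. For Neuron-ctrl the counts were 26 and 9, against 4668 and 3516 of 12321 genes. For NSC-Scramble they were 32 and 2, against 3210 and 3473 of 12484 genes. Across the 44 genes, the log2 ratio of the control mean to the stage mean was higher with greater length of the gene's main transcript, with Spearman's rho of 0.529 for Ctrl1, 0.542 for Neuron-ctrl and 0.479 for NSC-Scramble. With merged exon length, rho was 0.392, 0.379 and 0.229 over the members and 0.168, 0.111 and 0.512 over all genes. Genes are not independent replicates, and the points share their libraries. The tables were normalised separately and differ in depth, tissue and source, which cannot be told apart here. The changes reported above compare libraries within 1 table.

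**Figure D5:**
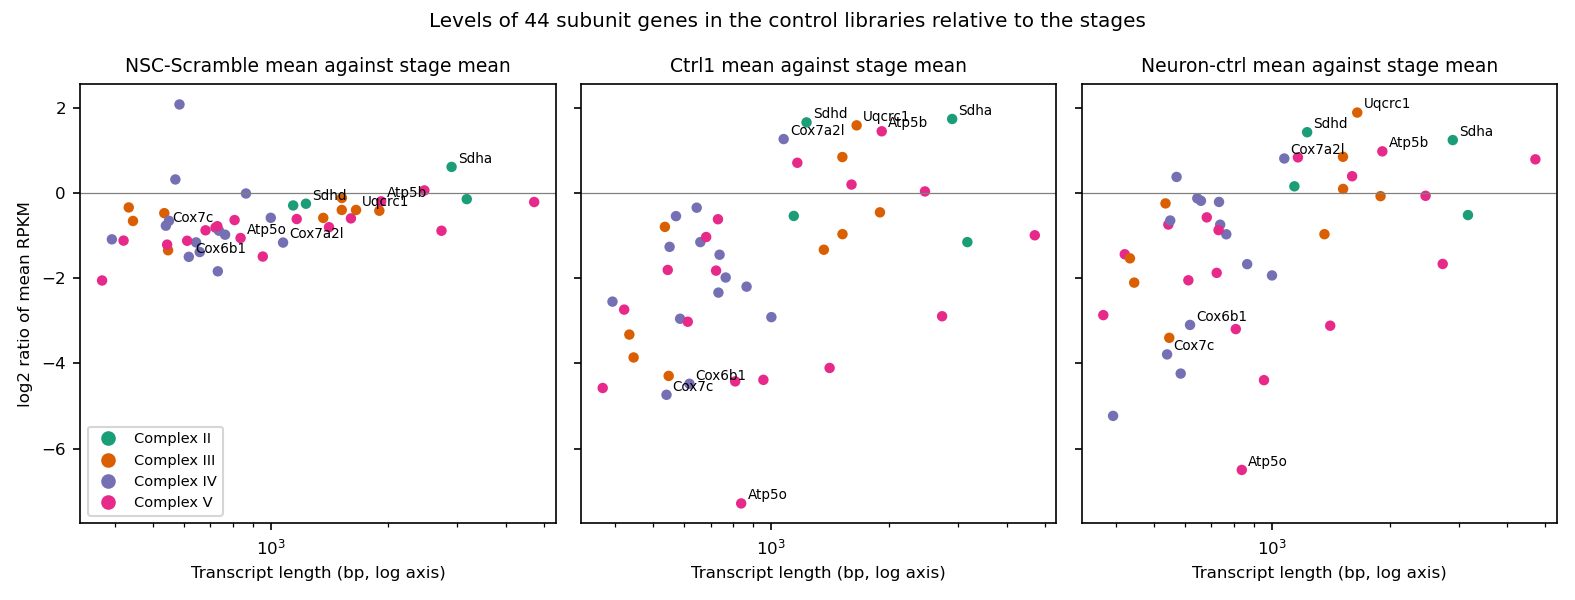
Mean RPKM of 44 genes in the control libraries of each perturbation relative to the mean of the 6 stages (y axis, log2 ratio) against the length of the gene's main transcript (x axis, log scale), with 1 point per gene coloured by complex. Atp5o lies at -7.29 in Ctrl1 and -6.50 in Neuron-ctrl but at -1.05 in NSC-Scramble, while Sdha lies above 0 in all 3.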

How the data were processed

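Libraries were made from 2 ug of Trizol-extracted RNA, per the labels' protocols. The submitters' processing notes name STAR 2.7.9a, HTSeq 0.6.0 and the mm10 build. The authors deposited RPKM values, identified from the values: multiplied by GENCODE M21 exon lengths they gave whole reads, within 0.01, for 97.5% to 97.8% of values. All sample columns were used.

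Groups were compared within each table with limma 3.58.1 in R 4.3.3 (mean-variance trend) on log2(RPKM + 1), for genes whose mean RPKM was 1 or more, with Benjamini-Hochberg adjustment. Fold changes on this scale understate those of low genes. The fits within tables, but not the interaction, were tested on simulated data. Each recovered nearly all genes given a log2 change of at least 1, which for the slope was spread over several days. The share of unchanged genes among its calls was above the nominal one. The subunit changes and slopes of the main fits were smaller than those simulated, so recovery at their size is not known. Alternatives were a pseudocount of 0.1, no filter, median-ratio and upper-quartile scaling, removal of each library's exon length and GC trend, limma-voom on recovered reads (calling 0, 3817, 337, 5715 and 1469 genes for knockdown, first set, neuron set, slope and interaction), the replicate number as a block, and each library left out, where the lone library of a group is assumed to vary like the others. The members, the other gene lists and the motifs were chosen with earlier results of these data known. Every member could be named, with per-library values for isoforms and for up to 3 called genes per complex and direction, or the 3 of smallest p where none was called, and up to 3 called genes of other lists. Near-identical copies were sought at 95% identity over 50% of the transcript. A check of part of the overexpressed construct is not reported here.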

Additional observations from a re-analysis of the deposited data

How the results depend on the processing

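No called gene changed sign under any alternative. In the first set, all 18 calls were kept with a pseudocount of 0.1, either scaling and the replicate block, 17 with the length and GC trend removed and 16 with limma-voom. Without a filter on low values 3 members fell (median -0.25). One member, Cox7c, rose with the trend removed and with the replicate block (1 each), and 23 fell with the block. Leaving out single libraries gave 4 to 17 members that fell (medians -0.49 to -0.25). In the neuron set limma-voom called 1 fall, and leaving out libraries gave 0 to 5 (medians -0.46 to -0.18). For the slope, either scaling left 2 falls and removal of the trend gave 3 rises and 3 falls. Leaving out a stage gave 0 to 3 falls, 0 to 6 rises and medians from -0.064 to 0.026. For the interaction, removal of the trend (Cox6b1) and the replicate block (Cox7a2l) gave 1 fall each, and leaving out libraries gave 0 to 1 in either direction (medians -0.17 to 0.11). The knockdown had no call under any alternative, and its median ranged from -0.013 to 0.044 with libraries left out. Its median with the replicate block was 0.02. The labels do not say whether the shared replicate numbers pair libraries, and 2 pairs per comparison cannot settle it. Same-numbered deviations were little correlated (r of 0.0101, 0.0991 and 0.0468). In the first set the block gave 4297 calls over all genes against 3438 without it. Causes of these shifts were not tested. With 2 libraries per group, few reads limit Atp5k, Uqcrh, Cox7c and Atp5o in the overexpression sets.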
